A study of Homo sapiens with 6 samples.

Results

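Keratins are the intermediate filament proteins of epithelial cells. They form obligate heteropolymers of a type I and a type II chain, so the amounts of the 2 types are usually read side by side, and the filaments are fastened to desmosomes between cells and to hemidesmosomes at the basement membrane. KRT8 and KRT18 are the pair found in simple epithelia, KRT7 and KRT19 accompany them in ductal and transitional epithelia such as the urothelium, and KRT5, KRT6A, KRT10 and KRT17 belong to stratified or activated epithelium. The 10 keratin genes described here were chosen by name as simple or stratified epithelial keratins and make up 10 of the 58288 gene identifiers in the table. KRT8, KRT7, KRT5, KRT6A, KRT80 and KRT81 encode type II chains, and KRT18, KRT19, KRT10 and KRT17 encode type I chains.

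The RNA came from T24, a human bladder cancer cell line, transfected with a control siRNA (NC, labelled siControl), with si-circ235-1 (labelled siRNA1) or with si-circ235-2 (labelled siRNA2), with 2 libraries of each labelled as biological replicates. Both siRNAs were aimed at the looping site of the circular RNA circ235, and all cells, the NC cells included, carried an siRNA. RNA was selected with oligo dT and sequenced without strand information, so circ235, which has no poly(A) tail, has no value here and its knockdown could not be checked in these libraries. Nothing states whether the replicates were separate cultures, so the p-values measure the spread between these libraries, which may be technical.

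The libraries held 15373992 to 19912893 counts, and replicate libraries varied by more than counting error alone would give. Values are CPM, reads scaled to library totals with TMM factors. Of the 14415 genes that passed the filter on low counts, 6 were keratin genes of the list: KRT8, KRT18, KRT7, KRT10, KRT80 and KRT17. A gene is referred to as called when its Benjamini-Hochberg adjusted p over all 14415 genes, from edgeR's quasi-likelihood test, was under 0.05. Of 9 urothelial markers, UPK3A, KRT20 and KRT13 were at 0 counts in all 6 libraries, and UPK1A, UPK1B and UPK2 stayed between 1 and 15 counts. GATA3 (1 to 20 counts) and FOXA1 (24 to 58 counts, 1.84 ± 0.360 CPM in NC) were tested and not called in any comparison. The epithelial markers CDH1 and CLDN7 stayed between 0 and 6 counts. The other 3 epithelial markers were tested. CLDN4 was at 34.9 ± 8.41 CPM in NC and was called lower under si-circ235-2 (log2 fold change -0.92 ± 0.24, adjusted p = 0.0146 in edgeR) but not under si-circ235-1 (-0.81 ± 0.24, adjusted p = 0.0657). EPCAM was at 2.81 ± 0.172 CPM in NC (-0.96 ± 0.40 and -0.78 ± 0.39, not called) and ESRP1 at 5.47 ± 0.978 CPM (0.36 ± 0.26 and 0.63 ± 0.26, not called). With library totals alone, without TMM factors, 1 of these 3 was called higher and 0 lower under si-circ235-2, so the CLDN4 call was lost. Without NC replicate 1 their median log2 fold change there was -0.65, beside -0.78 with all libraries. The part of these markers in the keratin changes was not tested. PPARG, the remaining urothelial marker, was at 22.9 ± 0.383 CPM in NC (SD, n = 2). Among leukocyte markers, CD14 rose under si-circ235-1 (log2 fold change 1.87 ± 0.29 (SE), adjusted p = 0.0104 in edgeR), while 3 of the 5 markers, PTPRC among them, were at 0 in every library.

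The level of each keratin in the control cells was taken per kilobase of its exons, since counts of genes of different length cannot be set side by side. KRT18 stood highest in NC with 553 ± 161 CPM per kb of exon (SD, n = 2), followed by KRT8 with 269 ± 63.7 and KRT7 with 268 ± 54.4. These are the simple-epithelial keratins, and together they made up 95.0% and 96.2% of the CPM of all 10 genes in the NC libraries. KRT80, a type II keratin found in many epithelia, stood at 34.7 ± 2.65, and KRT10, the type I keratin of suprabasal epidermis, at 26.7 ± 9.59. KRT17, a keratin of basal and injured epithelium, stood at 0.704 ± 0.307, and KRT81, a hair keratin, at 0.130 ± 0.0398.

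On the union of exons, KRT8 and KRT7 did not differ beyond their spread, and neither did KRT80 and KRT10, whose NC libraries overlapped. KRT18 lay at 439 and 666 in the NC libraries, above the 224 and 314 of KRT8. KRT8 has many annotated transcripts, which lengthen the union of its exons. On the length of the principal transcript KRT18 was at 1138 ± 331 and KRT8 at 870 ± 206, so the groups of values overlapped, although KRT8 was at 0.740 and 0.801 of KRT18 within the NC libraries. On that length the NC libraries of KRT8 lay above those of KRT7 (625 ± 127). Those of KRT80 (39.1 ± 2.99) lay above those of KRT10 (26.9 ± 9.68), as they also did on the longest transcript. The order of the 10 genes was the same with the union of exons, the longest transcript and the principal transcript.

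**Figure D1:**
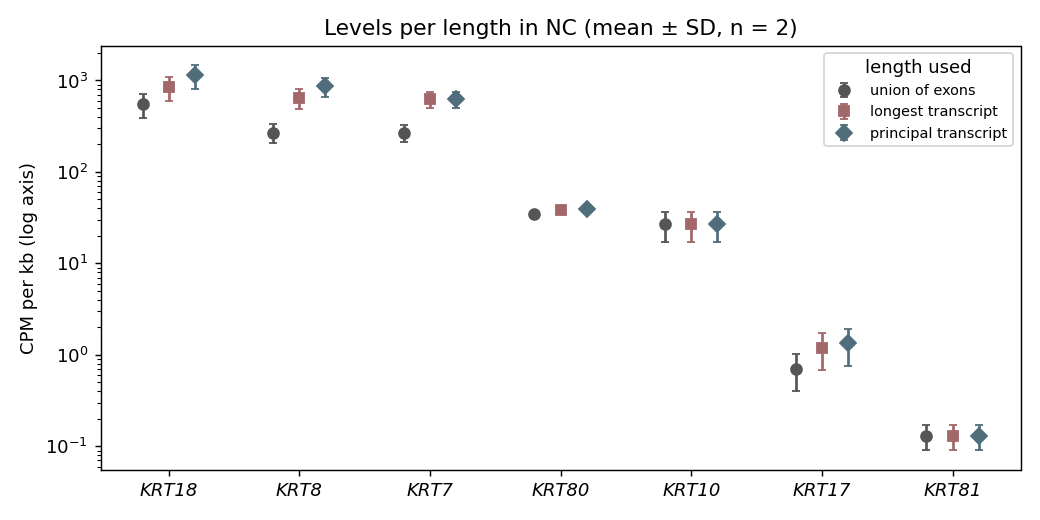
Level of the keratin genes detected in both NC libraries in CPM per kb on a log axis, with mean ± SD of the 2 NC libraries for each of 3 gene lengths. KRT18, KRT8 and KRT7 form the highest group, KRT80 and KRT10 follow at 34.7 and 26.7 CPM per kb of exon, and KRT17 and KRT81 lie lowest.

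Several keratins of the list were at or near 0. KRT19, the type I partner usually found with KRT7 in urothelium, had 1 count in NC replicate 2 and 0 counts in the other 5 libraries. KRT5, the type II keratin of basal cells, had 0 counts in 5 libraries and 4 counts in si-circ235-2 replicate 2. KRT6A, induced in activated keratinocytes, had 0 counts in all 6. Its near-identical copy KRT6B had 3 counts in si-circ235-2 replicate 1, and KRT6C had 0. A count of 0 allows up to 3 counts, which is 0.143 to 0.210 CPM in these libraries, and this limit covers counting error only. KRT81 had 3 and 5 counts in NC, 3 and 13 under si-circ235-1 and 7 and 5 under si-circ235-2, so no difference was detectable at this depth. KRT81 reads can be confused with those of KRT86, which had 49 to 72 counts per library and was not called in any comparison.

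Each siRNA was then compared with NC and with the other siRNA in 1 fit over the 6 libraries. Both comparisons with NC share the same NC libraries. Under si-circ235-1, 0 of the 6 tested keratin genes were called higher and 1 was called lower, KRT80, where 5.88% of all tested genes were called (2.24% higher, 3.64% lower). Under si-circ235-2, 0 were called higher and 2 lower, KRT7 and KRT10, where 31.4% of all tested genes were called (15.7% higher, 15.7% lower). Between si-circ235-2 and si-circ235-1, 2 were called higher under si-circ235-2, KRT80 and KRT17, and 2 lower, KRT18 and KRT10, where 39.7% of all tested genes were called (21.1% higher, 18.6% lower). Set against these backgrounds, with 6 genes tested, the counts do not single out the keratins. Their median log2 fold change was -0.43 under si-circ235-1, -0.46 under si-circ235-2 and -0.03 between the siRNAs, beside -0.03, -0.00 and 0.04 over all tested genes. The members moved in different directions, and their median absolute log2 fold change between the siRNAs was 1.13, beside 0.630 over all tested genes. At an unadjusted p under 0.05, edgeR counted 3, 4 and 4 of the 6 genes. The share of all tested genes at that unadjusted threshold is not given here. These counts, and the unadjusted counts of the lists below, therefore have no background to be set against. Fewer cells that express a keratin and less keratin RNA per cell cannot be told apart in these bulk libraries.

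**Figure D2:**
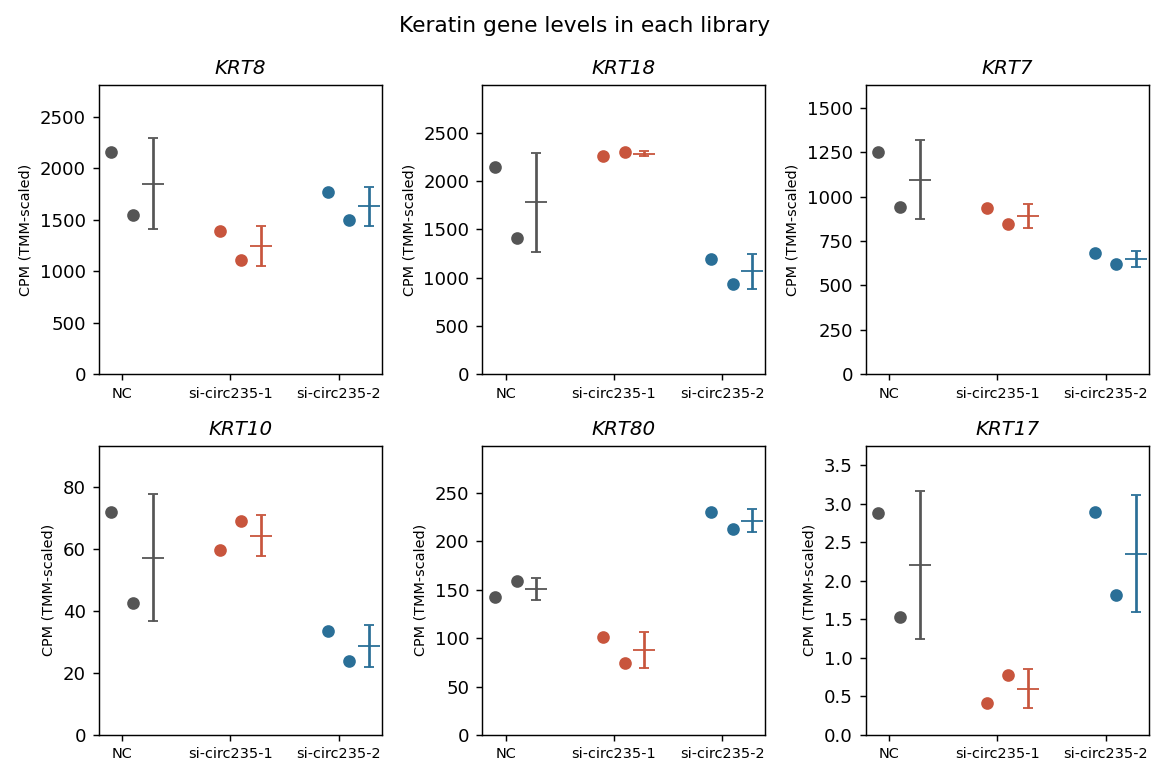
CPM after TMM scaling in each library for the 6 tested keratin genes, with a linear axis from 0 in each panel, points for single libraries and bars for mean ± SD of the 2 libraries per condition. KRT18 and KRT10 lie lowest under si-circ235-2, KRT80 and KRT17 lie lowest under si-circ235-1, and NC replicate 1 lies above NC replicate 2 for all but KRT80.

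KRT8 (ENSG00000170421.12, GRCh38 chr12:52897187-52949954, minus strand) measured 2159 and 1539 CPM in NC, 1385 and 1107 under si-circ235-1 and 1764 and 1496 under si-circ235-2. The si-circ235-1 libraries lay below both NC libraries, while the si-circ235-2 libraries overlapped NC. The log2 fold change was -0.57 ± 0.25 (SE) under si-circ235-1 (adjusted p = 0.188 in edgeR) and -0.18 ± 0.25 under si-circ235-2 (adjusted p = 0.616), and neither was called.

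KRT18 (ENSG00000111057.10, chr12:52948871-52952901, plus strand), the type I partner of KRT8, measured 2144 and 1413 CPM in NC, 2264 and 2304 under si-circ235-1 and 1193 and 938 under si-circ235-2. Both si-circ235-1 libraries lay above NC and both si-circ235-2 libraries below it. Against NC, the log2 fold change was 0.36 ± 0.26 under si-circ235-1 (adjusted p = 0.426 in edgeR) and -0.74 ± 0.26 under si-circ235-2 (adjusted p = 0.0525), and neither passed the test. DESeq2 called the latter (adjusted p = 0.0100). In edgeR the KRT18 value under si-circ235-2 was -0.43 after adjustment for transcript length and GC content (adjusted p = 0.114). With library totals alone it was -0.47 (adjusted p = 0.0909 in edgeR), and without NC replicate 1 it was -0.41. Between the siRNAs KRT18 was lower under si-circ235-2 by a log2 fold change of -1.10 ± 0.26 (adjusted p = 0.00799). Leaving out si-circ235-1 replicate 2 ended this call (adjusted p = 0.0566).

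KRT8 and KRT18 lie next to each other on chromosome 12 in opposite orientation, and their exons share 525 bases (7.63% of the KRT8 exon bases and 16.3% of those of KRT18), where reads without strand cannot be assigned to one gene. Both genes also have many processed pseudogenes. The 50 annotated copies of KRT8 held 1819 counts over the 6 libraries beside 159087 for KRT8 itself, and the 68 copies of KRT18 held 337 beside 169445. Adding these counts to the parent genes changed no call of either gene.

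The ratio of KRT8 to KRT18 within a library does not depend on the scaling between libraries. KRT8 counts were 1.01 and 1.09 times those of KRT18 in NC, 0.612 and 0.481 times under si-circ235-1 and 1.48 and 1.59 times under si-circ235-2. The groups did not overlap, with NC between the siRNAs. The mean log2 ratio differed from NC by -0.95 under si-circ235-1 and by 0.55 under si-circ235-2, and the siRNAs differed by 1.50, a 2.83-fold difference. With 2 libraries against 2, a two-sided exact permutation test gave p = 0.333 for each of these, which is the smallest p this design allows.

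The RNA of type II and of type I keratins was also summed over the list, as CPM per kb of principal transcript. These are RNA levels, and no keratin protein was measured. The ratio of type II over type I moved in the same order. It was 1.26 and 1.41 in NC, 0.820 and 0.678 under si-circ235-1 and 1.64 and 1.81 under si-circ235-2. On the union of exons the ratio was 0.932 and 1.07 in NC, 0.620 and 0.514 under si-circ235-1 and 1.23 and 1.38 under si-circ235-2, so the order of the conditions was the same, while the side of 1 on which NC replicate 1 lay depended on the length used. The difference between the siRNAs was 2.31-fold (exact permutation p = 0.333, two-sided). The summed type I level was 1167 ± 341 in NC, 1493 ± 21.7 under si-circ235-1 and 697 ± 119 under si-circ235-2 (SD, n = 2 each), and the summed type II level was 1534 ± 330, 1117 ± 135 and 1194 ± 117. KRT18 supplies nearly all of the type I sum, since KRT19 was near 0. The type II sum was spread over KRT8 and KRT7.

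**Figure D3:**
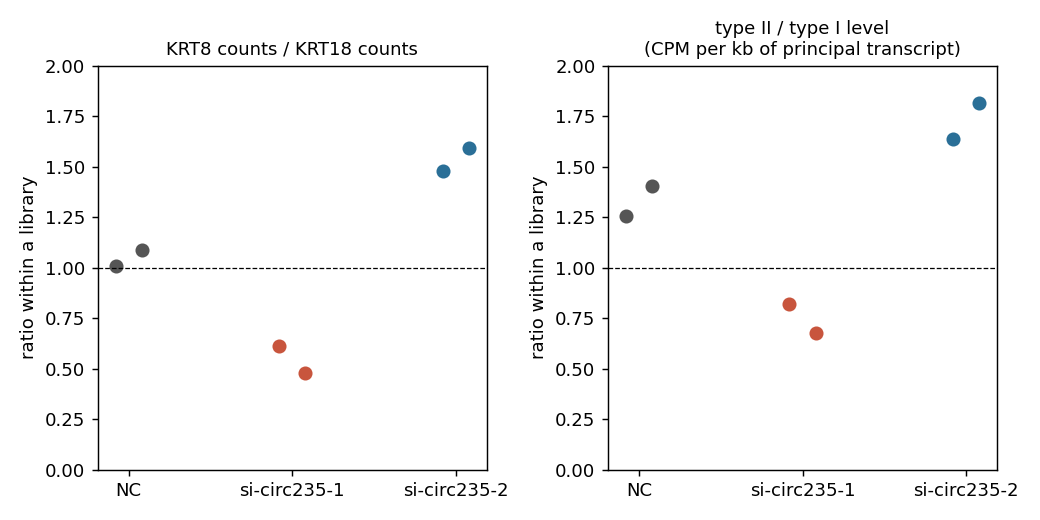
Left, KRT8 counts divided by KRT18 counts within each library. Right, summed type II over summed type I keratin level in CPM per kb of principal transcript, with a dashed line at 1 and 2 points per condition. The si-circ235-1 libraries lie below 1 in both panels, and the si-circ235-2 libraries lie above NC.

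KRT7 (ENSG00000135480.15, chr12:52232520-52252186, plus strand) measured 1254 and 939 CPM in NC, 938 and 844 under si-circ235-1 and 680 and 618 under si-circ235-2. Both si-circ235-2 libraries lay below the other 4. KRT7 was called lower under si-circ235-2 with a log2 fold change of -0.76 ± 0.22 (adjusted p = 0.0260 in edgeR), while the change under si-circ235-1 was -0.30 ± 0.22 (adjusted p = 0.437). The siRNAs differed by -0.46 ± 0.22 (adjusted p = 0.125), so a difference between them was not shown.

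The fall of KRT7 depended on the handling of transcript length and GC content. Its longest transcript is 1754 nt long with 62.9% GC, more GC-rich than 92.5% of the tested genes. When each library was adjusted for a smooth dependence of its counts on length and GC content, the KRT7 value under si-circ235-2 became -0.00 on the log2 scale (adjusted p = 0.988). The call also ended when TMM factors were not used (adjusted p = 0.0568) and when NC replicate 1 (0.206), si-circ235-2 replicate 1 (0.0513) or si-circ235-2 replicate 2 (0.111) was left out.

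KRT10 (ENSG00000186395.7, chr17:40818117-40822595, minus strand) measured 71.7 and 42.6 CPM in NC, 59.7 and 68.8 under si-circ235-1 and 33.5 and 23.8 under si-circ235-2. The si-circ235-1 libraries lay within the range of NC, and both si-circ235-2 libraries lay below it. KRT10 was called lower under si-circ235-2 against NC (log2 fold change -1.0 ± 0.27, adjusted p = 0.0176 in edgeR) and against si-circ235-1 (-1.17 ± 0.27, adjusted p = 0.00632). After the length and GC adjustment the value against NC was -0.89 (adjusted p = 0.0228). Leaving out NC replicate 1 (adjusted p = 0.207) or si-circ235-2 replicate 2 (0.0652) ended the call against NC, and leaving out si-circ235-1 replicate 2 (0.0561) ended that between the siRNAs. Across the 6 libraries the log2 CPM of KRT10 followed that of KRT18 with a Pearson r of 0.980, given as a description of libraries that share their depth and base composition.

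KRT80 (ENSG00000167767.13, chr12:52168996-52192000, minus strand) measured 143 and 159 CPM in NC, 101 and 74.6 under si-circ235-1 and 230 and 213 under si-circ235-2. The 3 conditions did not overlap, with the si-circ235-1 libraries below NC and the si-circ235-2 libraries above it. The log2 fold change was -0.78 ± 0.20 under si-circ235-1 (adjusted p = 0.0462 in edgeR, called) and 0.55 ± 0.20 under si-circ235-2 (adjusted p = 0.0530, not called). Between the siRNAs it was 1.33 ± 0.20 (adjusted p = 0.00101), and this difference was called under every alternative run. The call under si-circ235-1 was lost when NC replicate 1 (adjusted p = 0.114), NC replicate 2 (0.186), si-circ235-1 replicate 1 (0.0551) or si-circ235-1 replicate 2 (0.316) was left out. Under si-circ235-2, KRT80 was called by DESeq2 (adjusted p = 0.0414), with library totals alone (0.0156) and after the length and GC adjustment (0.0259).

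**Figure D4:**
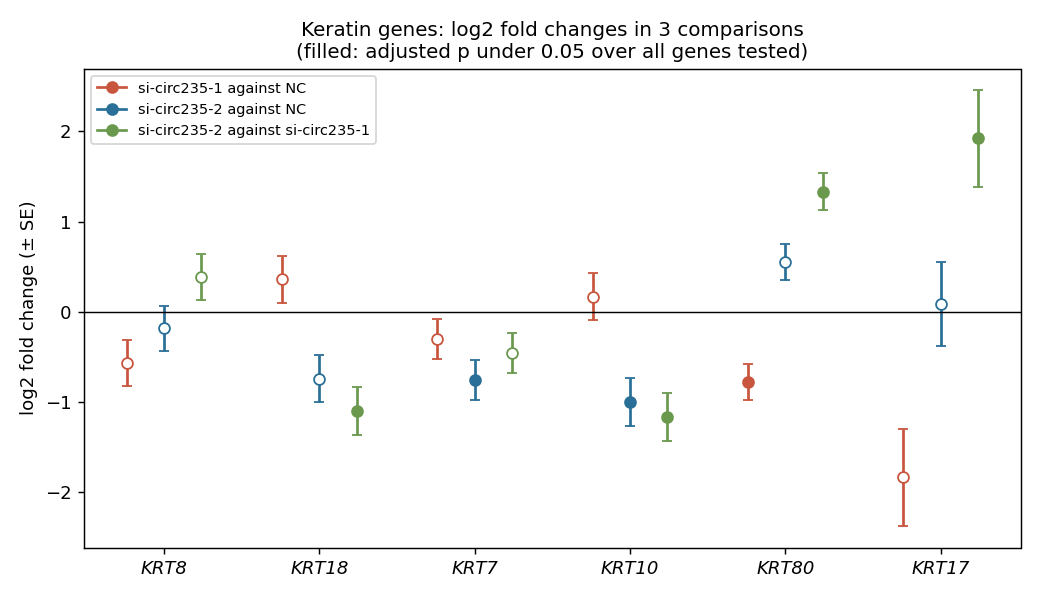
Log2 fold change ± SE of the 6 tested keratin genes in the 3 comparisons, with filled symbols where the adjusted p of edgeR over all tested genes was under 0.05. KRT18, KRT10, KRT80 and KRT17 lie on opposite sides of 0 for si-circ235-1 and si-circ235-2 against NC. KRT18 and KRT10 lie below 0 under si-circ235-2, and KRT80 and KRT17 under si-circ235-1. The SE bars of KRT10 under si-circ235-1 and of KRT17 under si-circ235-2 cross 0.

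KRT80 was also the only member whose 3' UTR held a match to the seed of miR-330-5p, the microRNA that the study followed as a partner of circ235. The microRNA (RefSeq) and the KRT80 sites (GRCh38, read on the minus strand) are shown because KRT80 differed between the siRNAs. Capitals mark the seed, bases 2 to 8, and its complement in the 3' UTR.
miR-330-5p: uCUCUGGGccugugucuuaggc
KRT80 site at chr12:52170841-52170862: tgctctttgggctcCCCAGAGa
KRT80 site at chr12:52170771-52170792: acctaagcctaggcCCCAGAGa

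The 3' UTR of KRT80-201 is 2527 nt long, and the sites lie at its bases 661 to 682 and 731 to 752. The word CCCAGAG, searched on the transcript strand, was present in 20.5% of the 12137 3' UTRs of tested genes and in 25.9% of 1883 such 3' UTRs between 80% and 125% as long as that of KRT80. The 3' UTRs of the other 9 keratin genes, 126 to 2190 nt long, did not hold these letters. A match is a description of the sequence only, and whether the microRNA acts on KRT80 was not tested.

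KRT17 was rare, with 44 and 25 counts in NC, 6 and 14 under si-circ235-1 and 49 and 38 under si-circ235-2. In CPM this was 2.88 and 1.53, 0.419 and 0.781, and 2.89 and 1.81. The si-circ235-1 libraries lay below all others, and si-circ235-2 overlapped NC. Under si-circ235-1 KRT17 was at -1.83 ± 0.54 on the log2 scale against NC (adjusted p = 0.0695 in edgeR, not called), and without a filter on low counts the gene was called (adjusted p = 0.00637). Between the siRNAs the log2 fold change was 1.92 ± 0.53 (adjusted p = 0.0158). Leaving out si-circ235-1 replicate 1 (0.0772) or si-circ235-2 replicate 1 (0.0935) ended this call.

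The sum of the 10 keratin genes was 5774 and 4095 CPM in NC, 4747 and 4401 under si-circ235-1 and 3904 and 3291 under si-circ235-2. On this scale the si-circ235-2 libraries lay below all others, and si-circ235-1 lay within the range of NC. KRT7, KRT8 and KRT18 made up between 92.7% and 96.7% of this sum in every library. This order depended on TMM scaling. With library totals alone the sums were 5138 and 4230 in NC, 4358 and 3963 under si-circ235-1 and 4308 and 3924 under si-circ235-2, so the conditions overlapped, and the median over all tested genes shifted on the log2 scale to -0.11 for si-circ235-1 and to 0.25 for si-circ235-2.

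Among 45 other keratin genes, 32 had 0 counts in every library and 6 were tested. KRT15, a type I keratin of basal epithelial cells, rose under si-circ235-1 from 44.7 ± 9.97 to 87.4 ± 6.48 CPM (SD, n = 2; log2 fold change 0.97 ± 0.21, adjusted p = 0.0265 in edgeR). This call ended when any 1 of the 4 compared libraries was left out (adjusted p of 0.0611 and 0.128 for the NC libraries, and of 0.0892 and 0.171 for those of si-circ235-1). KRT15 was at 35.5 ± 3.18 CPM under si-circ235-2 and differed between the siRNAs by -1.30 ± 0.21 (adjusted p = 0.00126). KRT16, a keratin of activated epidermis, was at 28 and 43 counts in NC, 81 and 93 under si-circ235-1 and 11 and 19 under si-circ235-2. It was called lower under si-circ235-2 against NC (-1.52 ± 0.42, adjusted p = 0.0195) and against si-circ235-1 (-2.78 ± 0.40, adjusted p = 0.000911). KRT16 and the following genes are named although they lie under 5 CPM on average, a choice made after their values were seen. KRT34 was called higher under si-circ235-2, at 3.05 CPM beside 0.978 in NC (1.63 ± 0.50, adjusted p = 0.0308 in edgeR). KRT83 was called lower there, at 0.651 CPM (14 and 10 counts) beside 1.88 in NC (-1.53 ± 0.52, adjusted p = 0.0444). With DESeq2, with library totals alone, and with the length and GC adjustment, 1 gene of the list was called higher and 1 lower under si-circ235-2 against NC. In all, 1 of the 6 was called higher under si-circ235-1, 1 higher and 2 lower under si-circ235-2, and 2 lower between the siRNAs. Over all tested genes, 5.88%, 31.4% and 39.7% were called in these comparisons. The medians of the 6 were 0.46, -0.32 and -0.46, beside -0.03, -0.00 and 0.04 over all tested genes. Without NC replicate 1 the median under si-circ235-2 was -0.05, as it was with library totals alone, and without NC replicate 2 it was -0.56.

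The desmosome links keratin filaments of neighbouring cells. Of 14 desmosome genes, 9 were tested, and 0 were called under si-circ235-1 in edgeR (2 at an unadjusted p under 0.05, and 1 called lower by DESeq2), while 6 were called higher and 2 lower under si-circ235-2, where 31.4% of all tested genes were called. Without NC replicate 1 these counts were 2 and 0, with DSP (adjusted p = 0.0267) and DSG2 (0.0450) called, and without si-circ235-2 replicate 2 they were 4 and 0. DSP, which binds keratin filaments directly, rose from 54.4 ± 6.13 to 146 ± 9.37 CPM (log2 fold change 1.42 ± 0.18, adjusted p = 0.00179). DSG2, the desmosomal cadherin of simple epithelia, rose from 45.8 ± 16.1 to 124 ± 28.5 CPM (1.44 ± 0.26, adjusted p = 0.00369), and the plaque gene PKP2 rose from 7.50 ± 0.698 to 15.9 ± 2.83 CPM (1.08 ± 0.26, adjusted p = 0.0105). JUP, which encodes plakoglobin, fell from 329 ± 51.4 to 177 ± 16.4 CPM (-0.89 ± 0.23, adjusted p = 0.0141). The list's median was 0.08 under si-circ235-1 and 0.60 under si-circ235-2, and the former turned to -0.01 with library totals alone. After the length and GC adjustment, si-circ235-2 had 3 genes of the list called higher and 1 lower, and PKP2 was no longer called (0.56, adjusted p = 0.105).

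Among 11 genes of the hemidesmosome, its laminin and the plakins, 10 were tested. In edgeR 0 were called under si-circ235-1 (3 at an unadjusted p under 0.05, and 2 called lower by DESeq2), while 3 were called higher and 1 lower under si-circ235-2, beside 31.4% of all tested genes called, so that the share of the list lay near the background. Without NC replicate 1, 2 genes were called higher and 0 lower, and CD151 was not called (adjusted p = 0.0502). LAMA3, a laminin chain of the epithelial basement membrane, rose under si-circ235-2 from 12.9 ± 0.781 to 35.6 ± 1.62 CPM (1.46 ± 0.22, adjusted p = 0.00228), and ITGA6, the laminin-binding integrin chain, rose from 60.9 ± 7.77 to 135 ± 5.71 CPM (1.15 ± 0.18, adjusted p = 0.00259). CD151, a tetraspanin that associates with this integrin, fell from 259 ± 112 to 95.8 ± 16.8 CPM (-1.43 ± 0.28, adjusted p = 0.00472). ITGB4 and the keratin linker PLEC were not called in either comparison with NC. The medians were -0.05 and 0.13. The length and GC adjustment gave 1 gene called higher and 2 lower for si-circ235-1, with a median of 0.02, and 2 higher and 1 lower for si-circ235-2.

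**Figure D5:**
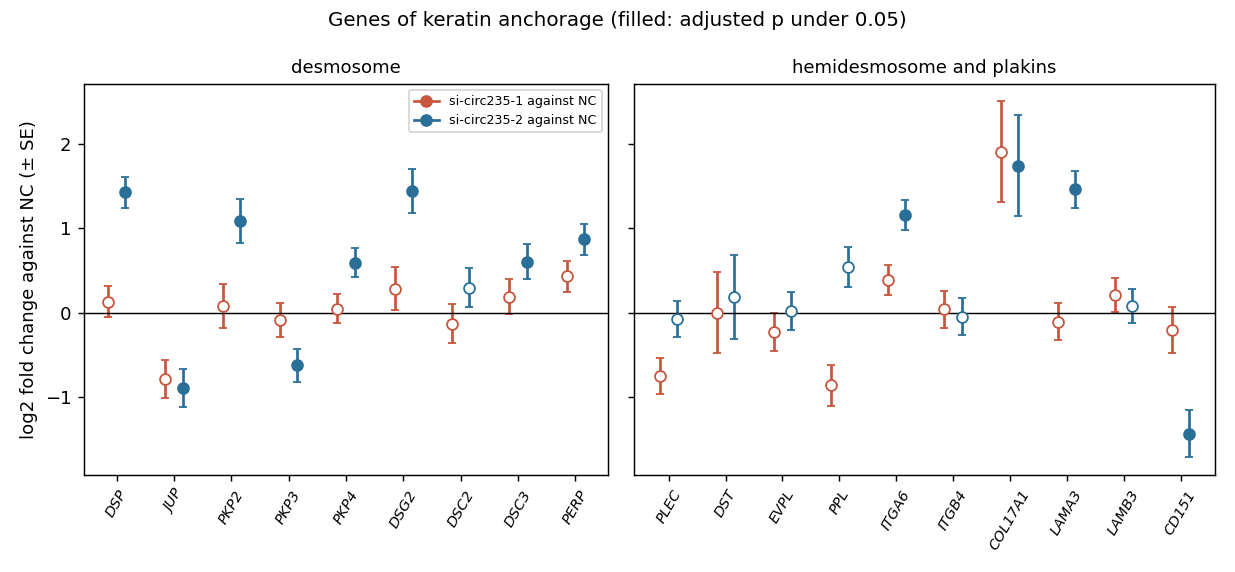
Log2 fold change ± SE against NC of the tested genes of the desmosome (left) and of the hemidesmosome and plakins (right), with filled symbols where the adjusted p of edgeR was under 0.05. DSP, DSG2, PKP2, LAMA3 and ITGA6 lie above 1 under si-circ235-2, and JUP and CD151 lie below 0 there.

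Keratin levels were last set beside those of other intermediate filaments. VIM, the filament gene of mesenchymal cells that many cultured carcinoma lines express, measured 755 ± 127 CPM in NC, 1335 ± 231 under si-circ235-1 and 576 ± 110 under si-circ235-2. It was not called against NC under either siRNA (0.82 ± 0.24, adjusted p = 0.0691, and -0.39 ± 0.24, adjusted p = 0.241, in edgeR) and was called between them (-1.21 ± 0.24, adjusted p = 0.00328). Of 8 tested genes of this list, 0 were called under si-circ235-1 (2 at an unadjusted p under 0.05, and 1 called higher by DESeq2). Under si-circ235-2, 2 were called higher and 1 lower, where 31.4% of all tested genes were called. The lamin gene LMNA fell there by 0.75 ± 0.24 on the log2 scale (adjusted p = 0.0355 in edgeR) and LMNB1 rose by 0.74 ± 0.22 (adjusted p = 0.0294). After the length and GC adjustment LMNA (-0.41, adjusted p = 0.0817), LMNB1 (0.49, adjusted p = 0.0751) and the remaining gene called higher all lost their calls under si-circ235-2, and without NC replicate 1 the list had 0 calls there. With the adjustment VIM was still called between the siRNAs (-1.38, adjusted p = 0.00125).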

How the data were processed

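Each of the conditions (NC, si-circ235-1, si-circ235-2) had 2 libraries of T24 cells. As deposited by the authors, the table holds raw counts per gene, as whole numbers, from poly(A)-selected RNA sequenced without strand. The submitters' processing notes name FastQC, cutadapt, STAR and hg38, without versions, and the sources used here name no counting tool or annotation. Reads of overlapping genes and of near-identical copies may therefore be split between genes.

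Library groups came from the sample labels. Gene names, loci, lengths and 3' UTRs (the longest among basic protein-coding transcripts) came from GENCODE 29 (GRCh38), which held 99.5% of the identifiers. The quasi-likelihood test of edgeR 4.0.16 (R 4.3.3) was run on all genes kept by filterByExpr, after TMM scaling, with 1 mean per condition, and p-values were adjusted after Benjamini and Hochberg (threshold 0.05). Levels per kb used the union of exons. Precision is set mainly by having 2 libraries per condition, and by counting error for the rare genes. The script was tested on simulated data with 200 of 14415 genes changed. There, edgeR recovered 31.8% of changes of 1 on the log2 scale for si-circ235-1 against NC and 36.6% for si-circ235-2 against NC. Of changes of 2 it recovered 87.4% and 85.9%, with 9.8 and 11 false calls on average over 5 simulations. More than 200 genes were called in both real comparisons, so these rates need not hold for them. Ratios within libraries were compared by exact permutation (scipy 1.17.1).

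The 10 keratin genes and all gene lists were chosen with earlier results of these data known. In the hemidesmosome list, 1 gene is not reported here and was left out of the counts. All 10 keratins were named. From the other lists, the rule named called genes of at least 5 CPM on average, at most the 4 of largest change per comparison. Genes that share reads with a keratin were added. Outside this rule, KRT16, KRT34 and KRT83 were named although under 5 CPM, and ITGB4 and PLEC although not called. The urothelial and epithelial markers and PTPRC were named whether called or not. The 5 genes most like KRT18 had the highest Pearson r of log2(CPM + 1) over the 6 libraries among genes with a mean of at least 5 CPM. The alternatives tried were DESeq2 1.42.0, library totals in place of TMM, all genes with a count in place of the filter, only the conditions compared in the fit, a replicate block, offsets from splines (5 degrees of freedom) over transcript length and GC content, a 2-fold threshold, pseudogene and paralog counts added to the parent gene, other gene lengths and each library left out. The principal transcript as gene length, and the calls of the other lists under every alternative, were added after seeing the data.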

Additional observations from a re-analysis of the deposited data

How the results depend on the processing

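Of 234 log2 fold changes of tested keratin genes recomputed under an alternative, 198 kept their direction and their side of the threshold, 15 lost a call, 15 gained one and 6 reversed, and the causes were not tested. The count of keratin genes called under si-circ235-1 against NC, 1 in the report, was 2 without a filter on low counts, 2 in a fit of those conditions alone, 0 with a 2-fold threshold and 0 to 2 when 1 library was left out (0 without either NC or either si-circ235-1 library, 2 without si-circ235-2 replicate 2). The count under si-circ235-2 against NC, 2 in the report, was 4 by DESeq2, 0 with a 2-fold threshold and 0 to 3 when 1 library was left out (0 without NC replicate 1 or si-circ235-2 replicate 2). Between the siRNAs the count, 4 in the report, was 2 to 4 when 1 library was left out (2 without si-circ235-1 replicate 2) and 4 or 5 otherwise.

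Reversals concerned values that were not called. KRT8 under si-circ235-2 against NC was 0.087 without TMM factors and ranged from -0.39 to 0.076 when 1 library was left out. KRT10 under si-circ235-1 ranged from -0.12 to 0.59, and KRT17 under si-circ235-2 from -0.29 to 0.61, with -0.28 without si-circ235-2 replicate 1. KRT7 between the siRNAs was 0.072 with the length and GC adjustment, and KRT8 between the siRNAs was called without TMM factors (0.72, adjusted p = 0.0142).

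With the replicate number as a block (replicate block), 4 keratin genes were called under si-circ235-2 against NC, KRT18 (adjusted p = 0.0349) and KRT80 (0.0483) beside KRT7 and KRT10, and no other call of a keratin gene changed. The deviations of same-numbered libraries from their group means correlated at -0.094, 0.149 and 0.139 between the 3 pairs of conditions. With 2 libraries per condition, these values cannot settle whether the numbers pair the libraries.

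In NC, the level per kb on the longest transcript was 852 for KRT18, 646 for KRT8, 625 for KRT7, 38.7 for KRT80 and 1.20 for KRT17. The principal transcript gave 1138, 870, 625, 39.1 and 1.34, and KRT81 was at 2.13 with KRT86 counts added. Over all tested genes, the number called under si-circ235-1 against NC was 847 in the report, 1507 by DESeq2, 1678 without a filter, 1642 in a fit of those conditions alone, 1856 with the length and GC adjustment and 0 without si-circ235-1 replicate 2. Under si-circ235-2 it was 4530 in the report and 767 without NC replicate 1, and between the siRNAs 5725 and 2818 without si-circ235-1 replicate 2. Depth limits what can be said of KRT5, KRT6A, KRT19 and KRT81.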

Other observations

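Genes of squamous differentiation, the programme in which stratified keratins are switched on, were mostly absent: 15 of 24 had 0 counts in every library and 6 were tested. Under si-circ235-1, edgeR called 0 of them (1 at an unadjusted p under 0.05, and 1 called lower by DESeq2). Under si-circ235-2, 0 were called higher and 4 lower, with a median log2 fold change of -1.13 beside -0.00 over all tested genes, 15.7% of which were called lower. Without NC replicate 1, 1 of the 6 was called lower, S100A2, and without si-circ235-2 replicate 2, 2 were, S100A2 and CNFN. SFN, which encodes the keratin-binding 14-3-3 protein sigma, fell from 1018 ± 369 to 525 ± 79.2 CPM (SD, n = 2; log2 fold change -0.96 ± 0.27, adjusted p = 0.0207 in edgeR). S100A2, a calcium-binding protein of basal keratinocytes, fell from 73.3 ± 39.7 to 19.2 ± 5.16 CPM (-1.93 ± 0.34, adjusted p = 0.00347). CSTB, a cysteine protease inhibitor, fell from 275 ± 71.5 to 150 ± 29.02 CPM (-0.88 ± 0.23, adjusted p = 0.0154), and CNFN, a component of the cornified envelope, fell by 1.57 ± 0.36 on the log2 scale (adjusted p = 0.00859). With the length and GC adjustment 2 of the 6 were called lower, with a list median of -0.57, and SFN was at -0.11 (adjusted p = 0.621).

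Among 28 transcription factors known to act on keratin genes, 20 were tested, and 1 was called higher and 0 lower under si-circ235-1, while 6 were called higher and 2 lower under si-circ235-2. These shares lay near the 5.88% and 31.4% of all tested genes called in the same comparisons. Under si-circ235-2 the counts were 2 and 0 without NC replicate 1, where TFAP2C, GRHL1 and JUNB were not called, and 4 and 1 with the length and GC adjustment. PPARG, a nuclear receptor of urothelial differentiation, rose under both siRNAs, from 22.9 ± 0.383 CPM in NC to 42.7 ± 4.53 under si-circ235-1 (log2 fold change 0.90 ± 0.19, adjusted p = 0.0264 in edgeR) and 50.1 ± 1.34 under si-circ235-2 (1.13 ± 0.19, adjusted p = 0.00310). The PPARG call under si-circ235-1 ended when any 1 of the 4 compared libraries was left out (adjusted p = 0.0528 to 0.205), and 0 genes of the list were then called. With library totals alone, 0 genes of this list were called under si-circ235-1. TFAP2C rose under si-circ235-2 from 19.1 ± 5.97 to 39.5 ± 0.529 CPM (1.05 ± 0.26, adjusted p = 0.0122), as did GRHL1 (1.06 ± 0.32, adjusted p = 0.0286). JUNB fell there from 34.7 ± 8.62 to 14.97 ± 1.25 CPM (-1.21 ± 0.23, adjusted p = 0.00437). Between the siRNAs, FOSL1 was lower under si-circ235-2 (-1.02 ± 0.21, adjusted p = 0.00384) and SP1 higher (0.95 ± 0.18, adjusted p = 0.00236). The list medians were 0.10 and 0.28 against NC.

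The 5 genes whose log2 CPM over the 6 libraries was most like that of KRT18, among 10371 genes, were COMMD5, CHTOP, CACFD1, SLC27A1 and ATP6V1F, with a Pearson r of 0.998 to 0.999. Among the keratins, KRT18 stood at 0.980 with KRT10, 0.762 with KRT7, -0.193 with KRT8 and -0.877 with KRT80. These values are descriptions over libraries that share their depth and base composition, and no test was made.

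Summed marker levels of other cell types were low. Fibroblast markers summed to 0.524 to 1.68 CPM over the 6 libraries and endothelial markers to 0.488 to 2.68 CPM. Leukocyte markers summed to 9.98 and 10.97 CPM under si-circ235-1 and to 1.77 to 3.05 CPM in the other 4 libraries, nearly all of it CD14. The part of these levels in the keratin values was not tested.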
